A study of Mus musculus with 2 samples.

Results

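The interleukin-6 family of cytokines and receptors was examined in 3D cultures grown from mammary basal cells of wild-type adult female mice. The basal cells were sorted by FACS and grown either alone (ctrl) or with M2-like macrophages for 11 to 14 days (M2). The 10 members of the family were taken by gene name from the 49492 genes of the count table. They are the ligands Il6, Lif, Il11, Osm and Clcf1, the signalling receptors Il6st, Osmr and Lifr, and the ligand-binding receptors Il6ra and Il11ra1. The culture time of the ctrl library is not given. RNA was taken from the colonies and organoids formed, and not from freshly sorted basal cells. By FACS, the study reported mostly luminal cells in such cultures, with a larger basal share with M2 than in its control. With 1 library per group there was no replicate check, and every test compares the 2 libraries and not the conditions. The macrophages were derived from bone marrow, polarised with IL-4 and IL-13, and kept behind a porous membrane according to the methods of the study, and the basal cells were gated as lin-CD24+CD29hi and embedded in matrix gel.

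Cytokines of this family signal through a shared receptor chain, gp130, which is encoded by Il6st. LIF pairs gp130 with the LIF receptor and mouse oncostatin M pairs it mainly with the oncostatin M receptor, whereas IL-6 and IL-11 first bind their own alpha receptors and then bring a pair of gp130 chains together. The receptors activate JAK kinases and STAT3, and SOCS3 is the best known feedback inhibitor. In the mammary gland, LIF and STAT3 are known for their part in involution, the removal of the milk-producing epithelium after weaning.

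The libraries held 26912610 reads (ctrl) and 29413844 reads (M2) in genes. Keratin genes of basal cells (Krt14, 81991 and 68968 reads in ctrl and M2; Krt5, 56383 and 83619 reads) and of luminal cells (Krt8, 29888 and 36348 reads) were abundant in both. Of the 4 defining macrophage markers, Adgre1 and Ptprc were at 0 reads in both libraries, Csf1r had 94 and 92 reads and Cd68 170 and 165. All 15 macrophage markers together summed to 1784 and 2368 reads, of which Arg1 gave 1507 and 2090. Only 4 of the 15 had enough reads to be tested, and none of those was called. The fibroblast markers summed to 9379 and 4609 reads. Of 9 tested, 2 were called higher in M2 and 3 lower, against 8.16% and 6.55% of all genes tested. The part of the marked cells in the results below was not tested. In bulk RNA, fewer cells of a type and less RNA per cell cannot be told apart.

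Lif, the most abundant ligand of the family in both libraries, rose in the M2 library, and Il6 rose from a level close to the limit of detection. The alpha receptor of IL-6, Il6ra, fell. Il6st, Osmr, Lifr, Il11ra1, Clcf1 and Il11 stayed under a 2-fold difference, and Osm had no reads. Calls required both a 2-fold difference and an adjusted p under 0.05 in a two-sided exact binomial test. Of the 9 members that reached 10 reads over both libraries, 2 were called higher, 1 lower and 6 were not called. Among all 19233 genes tested, 14.7% were called, 8.16% higher and 6.55% lower, and among those with 200 reads or more 9.83% were called. Without the fold threshold, 53.1% of all genes passed. The median log2 fold difference (M2 over ctrl) of the 9 members was 0.17, against -0.0032 for all genes tested. The 4 tested ligands all lay above 0, and 4 of the 5 receptors lay below it.

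**Figure D1:**
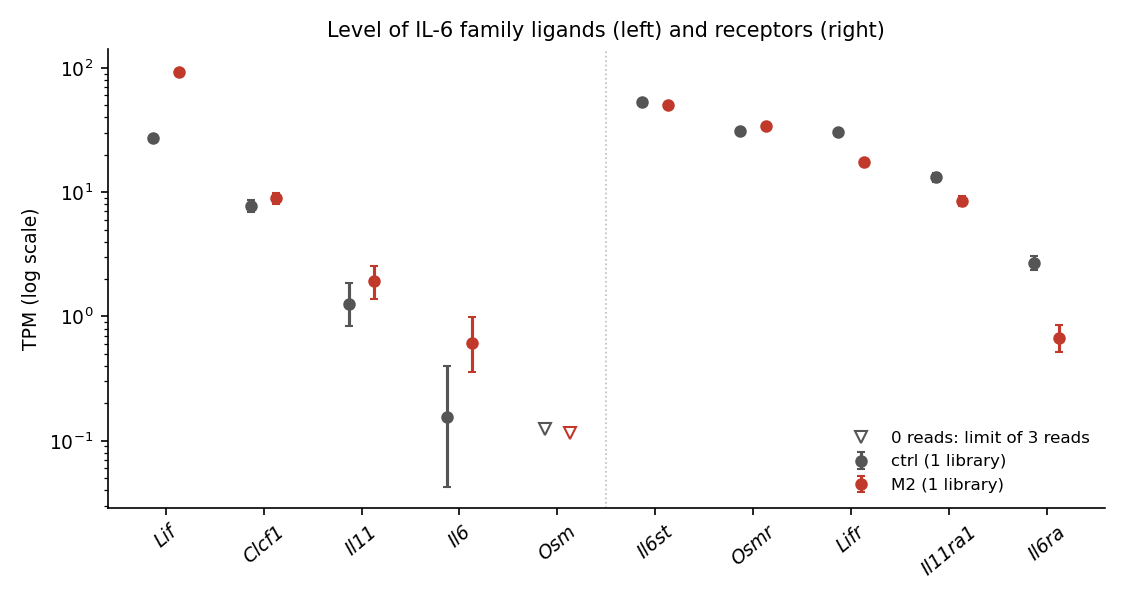
Level of each member in TPM (reads per exon length, scaled to the same total in each library; log axis) in the single ctrl library (grey) and the single M2 library (red), with bars for the 95% Poisson interval of the reads. Lif went from 27.5 to 93.2 TPM and Il6ra from 2.68 to 0.668 TPM, and the open triangles mark the limit of 3 reads for Osm, which had 0 reads.

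Ligands were examined first. Lif (chromosome 11, 4257557 to 4272514, GRCm38) was covered by 1262 ctrl reads and 4633 M2 reads, or 45.9 and 160.8 CPM (reads scaled to the same total in each library). It rose 3.50-fold, which is 1.81 on the log2 scale (95% interval 1.72 to 1.90). This difference was larger than that of 96.2% of all genes tested, and Lif had more reads than 89.1% of them.

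Il6 (chromosome 5, 30013114 to 30019981) was covered by only 4 ctrl reads and 17 M2 reads. Its log2 fold difference of 1.78 was close to that of Lif, but the interval ran from 0.40 to 4.05, so that the size of the change was poorly set by so few reads. It passed the exact binomial test over all genes with an adjusted p of 0.016. At 0.156 and 0.613 TPM, Il6 stayed far below Lif in both libraries. When the spread between cultures was assumed as a coefficient of variation of 0.2 in the edgeR exactTest, which called 8.61% of all genes, Il6 was not called (adjusted p = 0.183), whereas Lif was (adjusted p = 0.000598). At 0.4, which called 1.59% of all genes, Lif was not called either (adjusted p = 0.657).

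Il11 (chromosome 7, 4772373 to 4782857) had 27 and 44 reads, and its log2 value of 0.62 came with an interval of -0.09 to 1.38. A 2-fold difference and no difference are both within that interval. Clcf1 (chromosome 19, 4214238 to 4223490), which encodes a ligand that acts through the CNTF receptor, had 305 and 378 reads. Its log2 fold difference was 0.24 (interval 0.02 to 0.46), a small difference that did not pass the test (adjusted p = 0.059, exact binomial test over all genes). Osm (chromosome 11, 4236420 to 4241026) had 0 reads in both libraries, which allows up to 3 reads, or 0.125 TPM in ctrl and 0.116 TPM in M2. Osm is known as a product of macrophages and other leukocytes. It is the closest neighbour of Lif in the genome, on the same strand with a gap of 16.5 kb and no annotated gene in between, and only Lif of this pair was detected.

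Compared per length, Lif made up most of the ligand level in both libraries, with 74.9% of the summed TPM of the 5 ligands in ctrl and 89.1% in M2. Clcf1 went from 21.2% to 8.51% and Il11 from 3.46% to 1.83%, and Il6 held 0.425% and 0.586%. These shares depend on the gene length, for which the deposited table sums the exons of all transcripts. With the longest coding transcript of GENCODE M21 instead, Lif took 63.4% in ctrl and 83.1% in M2, and Clcf1 took 33.4% and 14.8%. The ratio of Lif to Clcf1, whose change does not depend on library scaling or gene length, was 2.96 times as high in M2 (log2 change 1.57, 95% interval 1.33 to 1.80).

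**Figure D2:**
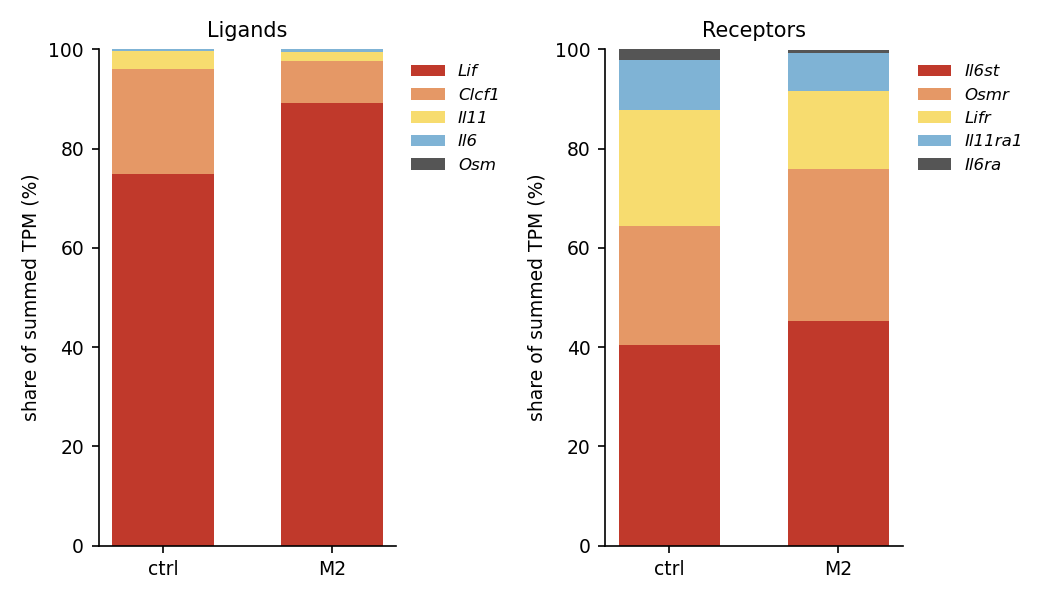
Share of each member in the summed TPM of the 5 ligands (left) and of the 5 receptors (right), in percent, for the ctrl and M2 libraries. Lif took 74.9% of the ligand level in ctrl and 89.1% in M2, while the share of Lifr among receptors went from 23.5% to 15.7%, all by the deposited gene lengths.

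The sequences around the start sites of the ligand genes were compared, because the members called higher, Lif and Il6, were ligands. Il11, which was not called, is included as a ligand. Windows of 250 bases before to 50 bases after the start were taken from RefSeq (GRCm38.p6), where 8 of the 10 members had 11 windows. Matches were sought on both strands for AP-1 (TGANTCA), STAT (TTCNNNGAA), C/EBP (TTGCNNAA) and the NF-κB consensus. In each of the 3 ligand genes with a window, 1 window held an AP-1 match, and these 3 windows are printed 5′ to 3′ with matches in capitals.
Il6, chr5:30012864-30013163, plus strand: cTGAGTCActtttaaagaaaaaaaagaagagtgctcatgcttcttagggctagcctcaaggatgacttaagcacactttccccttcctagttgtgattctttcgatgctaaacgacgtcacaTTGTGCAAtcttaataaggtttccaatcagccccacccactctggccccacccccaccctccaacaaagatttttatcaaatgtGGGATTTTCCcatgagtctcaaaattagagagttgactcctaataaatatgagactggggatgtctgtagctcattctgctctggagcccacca
Lif, chr11:4257318-4257617, plus strand: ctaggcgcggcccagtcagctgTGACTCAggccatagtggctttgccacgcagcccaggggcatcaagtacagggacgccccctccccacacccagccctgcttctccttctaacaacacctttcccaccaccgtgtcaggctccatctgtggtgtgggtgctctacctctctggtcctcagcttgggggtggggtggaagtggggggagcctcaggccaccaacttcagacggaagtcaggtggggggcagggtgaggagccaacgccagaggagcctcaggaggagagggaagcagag
Il11, chr7:4778092-4778391, minus strand: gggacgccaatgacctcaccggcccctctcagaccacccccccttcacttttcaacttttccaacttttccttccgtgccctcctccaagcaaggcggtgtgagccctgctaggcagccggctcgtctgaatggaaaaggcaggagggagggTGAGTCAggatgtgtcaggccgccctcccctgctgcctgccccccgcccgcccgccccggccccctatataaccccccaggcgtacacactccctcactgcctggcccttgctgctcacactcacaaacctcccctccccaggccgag

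The AP-1 matches lay 249 to 243 bases before the start in Il6, 228 to 222 in Lif and 98 to 92 in Il11. The Il6 window also held a C/EBP match at 128 to 121 bases and an NF-κB match at 44 to 35 bases before the start. Of all 32851 windows in the table, 7.81% held an AP-1 match, 10.8% a C/EBP match, 4.51% an NF-κB match and 8.30% a STAT match. Among the receptors, Osmr had 1 AP-1 match, 4 to 10 bases into the transcript, and the windows of Il6st, Lifr, Il6ra and Il11ra1 held none of these letters. The other Il11 window held none either. A match describes the letters of these windows and does not show that a factor was bound.

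Receptors were examined next. Il6st (chromosome 13, 112464070 to 112510086), which encodes gp130, was covered by 6182 ctrl reads and 6342 M2 reads. Its log2 fold difference was -0.03 with an interval of -0.08 to 0.02, which spans 0 and is narrow by counting error. Osmr (chromosome 15, 6813577 to 6874969) had 3960 and 4676 reads, and the log2 fold difference of 0.17 (0.11 to 0.23) was clear of 0 by counting error but far from 2-fold. Lifr (chromosome 15, 7129559 to 7197489) had 3337 and 2051 reads, 1.71-fold fewer in M2 per scaled library. Its log2 fold difference was -0.77 (-0.85 to -0.69), beyond counting error and still short of 2-fold.

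**Figure D3:**
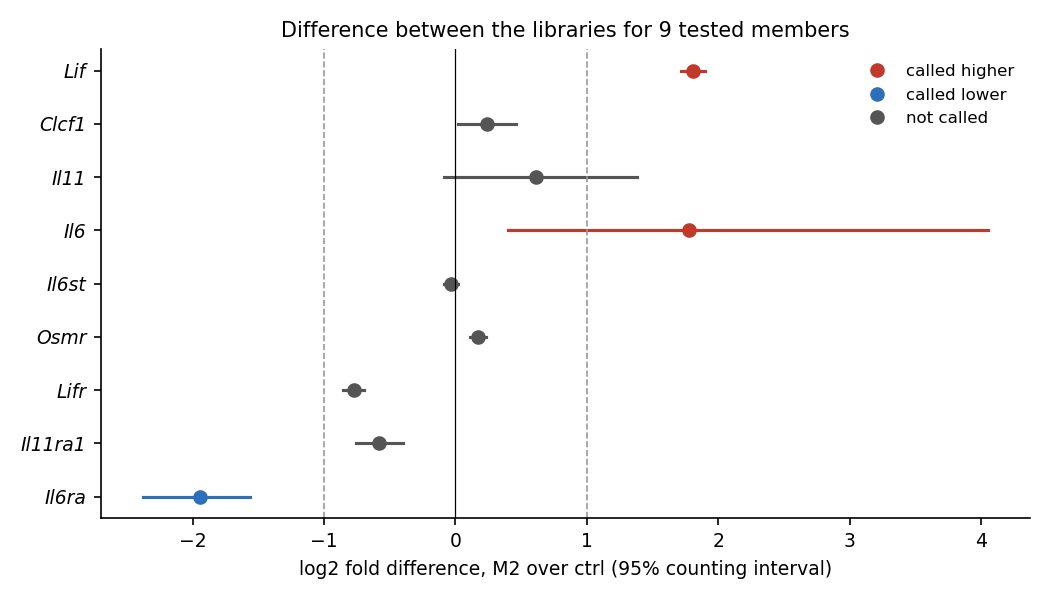
Log2 fold difference (M2 over ctrl) of the 9 tested members with 95% Clopper-Pearson intervals, which cover counting error only; dashed lines mark a 2-fold difference. Lif at 1.81 and Il6 at 1.78 were called higher (red) and Il6ra at -1.95 was called lower (blue), and the interval of Il6 is the widest of the 9.

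Il6ra (chromosome 3, 89864059 to 89913196), which encodes the IL-6 binding chain, was covered by 245 ctrl reads and 66 M2 reads. It fell 3.85-fold (log2 -1.95, interval -2.38 to -1.56), and only 2.70% of all genes tested had a lower value. In the edgeR exactTest it was called with an assumed coefficient of variation of 0.2 (adjusted p = 0.000692) but not with 0.4 (adjusted p = 0.551). The antisense gene Gm42809 shares 242 exon bases with Il6ra, 2.80% of its exon length, and had 30 and 10 reads. Since the use of strand in counting is not stated, reads in those bases cannot be assigned with certainty.

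Il11ra1 (chromosome 4, 41699989 to 41769474), the IL-11 binding chain, had 621 and 436 reads, a log2 difference of -0.58 (-0.76 to -0.40). Near copies of this gene lie on the same chromosome, and the copies in the table, Il11ra2 (14 and 8 reads) and Gm13305 (6 and 5 reads), were low in both libraries. How reads that match several copies were counted is not stated, so the value of Il11ra1 is uncertain to that extent. In both libraries the alpha receptors were less abundant per length than gp130. The TPM of Il6st was 19.6 times that of Il6ra in ctrl and 74.8 times in M2. It was 4.01 and 5.86 times that of Il11ra1. By the length of the longest coding transcript, the level of Il6st was 25.1 and 95.7 times that of Il6ra but only 2.30 and 3.37 times that of Il11ra1.

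By the deposited coordinates, Osmr and Lifr lie 255 kb apart on chromosome 15, on opposite strands and with 1 annotated gene, Gm38282, between them. In GENCODE M21 Lifr starts at 7090614, which makes the gap smaller. By the deposited lengths their levels were 31.0 and 30.6 TPM in ctrl, with overlapping counting intervals, and 33.8 and 17.4 TPM in M2. The Osmr to Lifr ratio was then 1.01 in ctrl (95% interval 0.966 to 1.06) and 1.94 in M2 (1.85 to 2.05). By the longest coding transcript it was 2.09 in ctrl and 4.01 in M2, so that the likeness in ctrl holds with the deposited lengths only. The log2 change of this ratio was 0.94 (0.84 to 1.04) and does not depend on library scaling or gene length. The change of Lifr relative to Il6st was -0.74 (-0.83 to -0.65), and that of Osmr relative to Il6st was 0.20 (0.12 to 0.28). Of the 9 ratios of member pairs that were computed, Lif to Lifr changed most. The Lif to Lifr ratio per length was 0.898 in ctrl and 5.36 in M2, a 5.97-fold change (log2 2.58, interval 2.46 to 2.70).

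Ordered by TPM, the ctrl library ran from Il6st (52.7) through Osmr (31.0), Lifr (30.6), Lif (27.5), Il11ra1 (13.2), Clcf1 (7.78), Il6ra (2.68) and Il11 (1.27) to Il6 (0.156). The intervals of neighbours in this order overlapped only for Osmr and Lifr, and for Il6 and Osm. In the M2 library Lif came first with 93.2 TPM, above Il6st with 50.0. There Clcf1 (8.91) and Il11ra1 (8.53) overlapped, as did Il6ra (0.668) and Il6 (0.613). The order of the receptors depends on the gene length used, since the deposited length of Osmr is 12113 bases and its longest coding transcript 5491 bases. With the latter kind of length, the ratio of Osmr to Il6st was 1.01 in ctrl and 1.17 in M2, against 0.587 and 0.676 by the deposited lengths, while Lif ranked 4 in ctrl and 1 in M2 with either length.

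**Figure D4:**
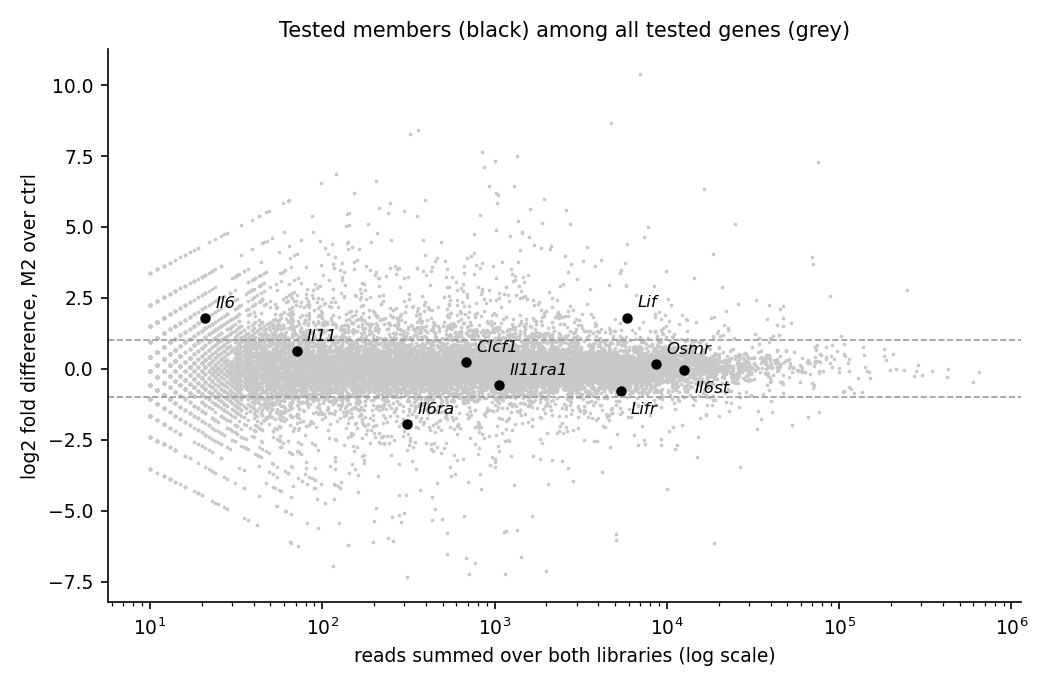
Log2 fold difference (M2 over ctrl) against reads summed over both libraries (log scale) for the 19233 genes tested (grey), with the 9 tested members in black and dashed lines at a 2-fold difference. Lif lies above most genes with similar read numbers, while genes with as few reads as Il6 (4 and 17) spread widely.

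The remaining genes of the family were accounted for from a list of 11. Of these, 7 had enough reads to be tested, 1 was called higher and none lower, against 8.16% and 6.55% of all genes tested. Cntfr, the alpha receptor through which CNTF and the Clcf1 product act together with gp130 and the LIF receptor, was covered by 1675 ctrl reads and 4573 M2 reads. It rose 2.60-fold (log2 1.38, interval 1.30 to 1.46) and reached 144 TPM from 57.0 TPM, above each of the 10 members in both libraries by the deposited lengths. The other ligands were low or not called. Cntf had 17 and 32 reads with an interval of -0.05 to 1.78, and the cardiotrophin genes Ctf1 (303 and 273 reads) and Ctf2 (11 and 12 reads) stood at -0.22 and 0.05 on the log2 scale. Ebi3, a subunit of IL-27, had 7 and 13 reads, and Il11ra2 is given above. Il27, Il31, Il27ra and Il31ra had at most 1 read in each library.

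Downstream of the receptors, none of the 14 JAK-STAT transducers was called higher and 1 was called lower, with a median of -0.02. Of all genes tested, 8.16% were called higher and 6.55% lower, so 1 call in a list of this size says little. Stat3, the main transducer of the family, had 13071 and 20525 reads and stood at 0.58 on the log2 scale (interval 0.55 to 0.61), while Jak1, the principal kinase of gp130, stood at 0.04. Ptpn11, which couples gp130 to the ERK pathway, stood at 0.32, and the adaptor gene Gab1 at -0.94, just short of 2-fold. Stat5a, known for its role in milk protein expression, fell from 2186 to 1091 reads (log2 -1.07, interval -1.18 to -0.97). Among 15 inhibitors of the pathway, listed as feedback inhibitors but also holding PIAS and phosphatase genes, 1 was called higher and none lower. Socs3 had 3539 and 2265 reads (log2 -0.71, interval -0.79 to -0.64), short of a 2-fold difference. Socs5, Pias2 and Ptpn1 had values of -0.47, -0.10 and 0.01. Ptpn2, a phosphatase that acts on JAK and STAT proteins, rose from 811 to 2112 reads (log2 1.31).

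Known STAT3 target genes were called in both directions. Of 25 tested, 5 were called higher, 1 lower and 19 not called, and the median was 0.10. The shares over all genes tested were 8.16% higher and 6.55% lower. Vegfa (934 and 7510 reads, log2 2.94), Lrg1 (421 and 1330, log2 1.59), Timp1 (398 and 1201, log2 1.52), Bcl3 (242 and 640, log2 1.33) and Pim1 (617 and 1530, log2 1.24) rose. Genes of this list called in either direction can also be targets of other pathways, as is known for Vegfa, Timp1 and Fos. Fos fell from 42339 to 11153 reads (log2 -1.99). Igfbp5, which had the most reads of the list and is linked to STAT3 in the involuting gland, had a value of -0.46, and Ctsl and Pik3r1 stood at 0.02 and -0.15.

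Acute phase proteins, which the liver makes in response to IL-6 and which epithelia also make, had the highest median of these lists. Of 16 tested, 12 were called higher and none lower, with a median of 3.46, against 8.16% and 6.55% of all genes tested. C3, a complement component, had 666 and 24213 reads (log2 5.11). Lcn2, Cp and Steap4 were also abundant and stood at 2.56, 2.42 and 2.88. Saa1, Saa2 and Saa3 had at most 10 reads each in ctrl and between 843 and 6977 in M2. Reads of Saa1 and Saa2, which are near copies, could be exchanged. Of the 16 tested genes, 14 lay above 0 and 2 below it. The latter were the fibrinogen genes Fgb (log2 -0.86, interval -2.20 to 0.27) and Fgg (log2 -0.38, interval -0.66 to -0.11), and neither was called. Crp and Hamp had 0 reads in both libraries. Whether IL-6 or another signal lay behind the differences in this list was not tested.

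**Figure D5:**
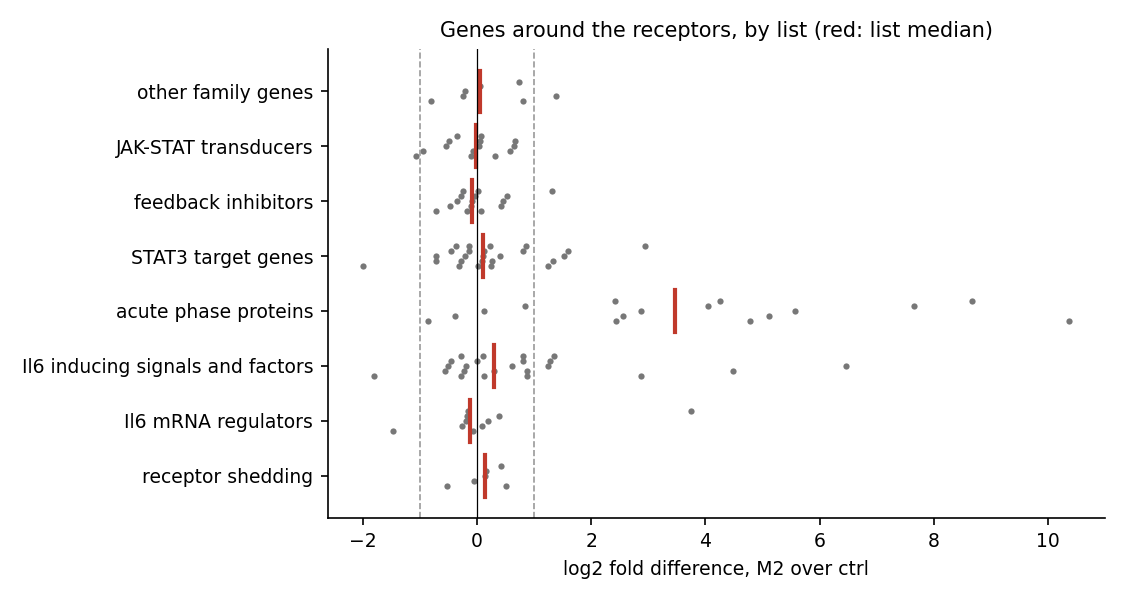
Log2 fold difference (M2 over ctrl) of each tested gene (grey points) in the 8 lists of genes around the receptors, with the list median in red and dashed lines at a 2-fold difference. The acute phase list has a median of 3.46, while the medians of the other 7 lists lie between -0.12 and 0.30; points of genes with 3 reads or fewer in a library depend on the pseudocount of 1.

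Signals and factors linked to the induction of Il6 were listed as well. The list also holds inhibitors such as Nfkbia, and Atf3 is known to repress Il6, so a direction here does not equal more or less induction. Of 23 tested, 6 were called higher and 1 lower, with a median of 0.30, against 8.16% and 6.55% of all genes tested. Il1a (9 and 920 reads, log2 6.46), Tnfrsf1b (19 and 468, log2 4.48), Tnf (133 and 1032, log2 2.88) and Nfkbiz (2175 and 5809, log2 1.35) rose, as did Il1rap (1228 and 3142 reads) and Fosl1 (70 and 175 reads). Atf3 fell (2966 and 895 reads, log2 -1.80). Nfkbia, Nfkb1 and Jun had values of 0.88, 0.30 and -0.45.

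Of 10 regulators of Il6 mRNA, 1 was called in each direction and the median was -0.12. Over all genes tested, the shares were 8.16% higher and 6.55% lower. Zc3h12a, which encodes an RNase that degrades Il6 mRNA, rose from 380 to 5357 reads (log2 3.74, interval 3.60 to 3.90). Zfp36, which encodes the destabilising protein tristetraprolin, fell from 16616 to 6272 reads (log2 -1.47, interval -1.52 to -1.43). Zfp36l1, Zfp36l2 and Hnrnpd stood at -0.19, 0.38 and 0.20. None of the 6 genes of receptor shedding reached a 2-fold difference, so none was called, and their median was 0.15. Adam10, Adam17, Rhbdf2 and Timp3 passed the exact binomial test without the fold threshold, as did 53.1% of all genes. Adam17, the protease that sheds the IL-6 receptor, had a value of 0.51 (interval 0.43 to 0.59) and Timp3, its inhibitor, -0.53. Adam10 and Rhbdf1 stood at 0.15 and -0.05.

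Other cell type markers moved beside the members. For the counts below, the shares of all genes tested were 8.16% called higher and 6.55% called lower. Of 8 luminal markers, 4 were called lower, namely Elf5 (log2 -1.11), Esr1 (-1.94), Pgr (-2.54) and Foxa1 (-1.55), whereas Epcam and Krt18 had values of 0.06 and -0.05. Of 6 basal markers, Oxtr was called lower (log2 -2.18) and Myh11 stood at -0.06. Col1a2, Col1a1 and Col3a1, the fibroblast markers with the most reads, had values of -1.68, -0.98 and -2.61. The defining fibroblast gene Dcn rose from 51 to 157 reads. Pdgfra (607 and 822 reads, log2 0.37) and Lum (10 and 3 reads), also defining, were not called. Dcn and Fbln1 (62 and 485 reads) were the 2 fibroblast markers called higher, against 3 called lower. The endothelial markers summed to 61 and 93 reads, with Pecam1 called higher (33 and 76 reads) and Cdh5 (11 and 2) and Kdr (11 and 0) lower, and Vwf had 4 and 12 reads. The neutrophil markers S100a8 (1 and 44 reads) and S100a9 (1 and 47 reads) were called higher, but Ly6g and Mpo were at 0 in both libraries and Cxcr2 had 0 and 1 read. The adipocyte list summed to 203 and 7 reads, nearly all from Lep, and the T and B cell list to 1 and 5. The part of these differences in the values of Lif, Il6ra and Lifr was not tested.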

How the data were processed

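RNA of mammary cultures was sequenced in 1 ctrl and 1 M2 library, grouped by the treatment label. The authors deposited unnormalized read counts per gene. The aligner, counting tool, use of strand and read filters are not given in the sources used here. The submitters' processing notes name GRCm38 and mm10. The table lists exon coordinates and a summed exon length per gene. All 10 members are protein-coding in GENCODE M21 (GRCm38), 8 of them with the same start and end, while Lifr and Il11 differ. A spreadsheet had changed 26 gene names to dates, and these were tested but not named.

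Library sizes were scaled by TMM in edgeR 4.0.16 under R 4.3.3 (factors 1.02 and 0.980). Genes with at least 10 reads in all were tested by a two-sided exact binomial test (scipy 1.17.1) with Benjamini-Hochberg adjustment over 19233 genes. Calls needed an adjusted p under 0.05 and a 2-fold difference of reads plus a pseudocount of 1. Intervals are 95% Clopper-Pearson (fold differences), Poisson (levels) or normal on the log scale (ratios). Molecular identifiers are not mentioned, and so the intervals and the floor of 3 reads for a count of 0 cover counting error only. TPM was computed from the counts and deposited lengths. The functions were tested on simulated data. No biological coefficient of variation can be estimated from 1 library per group, so values of 0.2 and 0.4 were assumed in the edgeR exactTest. Other alternatives were the scaling, pseudocount, read filter and fold threshold.

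The members and lists were chosen with earlier results of these data known. Text names all members and the other family genes, of which 1 is not reported here. Of each further list it names the 4 genes with the most reads and up to 4 called genes with the largest difference, and of each marker list the 3 genes with the most reads and the defining ones. Ratio pairs, motifs and all other named genes were chosen after their values were seen.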

Additional observations from a re-analysis of the deposited data

How the results depend on the processing

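Results were recomputed with 1 choice changed at a time. All 9 tested members kept their direction under every alternative that could test them, and only calls of Lif, Il6 and Il6ra were lost. Across alternatives the log2 fold difference ran from 1.75 to 1.81 for Lif, from 1.45 to 1.89 for Il6 and from -2.01 to -1.92 for Il6ra. At unchanged values of 1.81, 1.78 and -1.95, each of the 3 missed a 4-fold threshold and the call of an assumed coefficient of variation of 0.4, which left 0 members higher and 0 lower. Il6 also lost its call at 0.2, which left 1 member higher, and could not be tested with at least 1 CPM in both libraries, which also left 1. That filter moved the members' median from 0.17 to -0.032, as it removes Il6 and Il11. Over all genes, 797 were higher and 583 lower with the 1 CPM filter, 616 and 494 at 4-fold, 964 and 691 at 0.2 (8.61% of genes) and 175 and 130 at 0.4 (1.59%). With the longest coding transcript as gene length, chosen after seeing the data, Osmr ranked 1 in ctrl and 2 in M2, Il6st ranked 2 and 3, Lifr ranked 5 in M2, and the Lif share of ligand level was 63.4% in ctrl and 83.1% in M2. Levels of all ratios but Lif to Lifr moved beyond their intervals with this length, whereas their changes between libraries cannot. Ratio changes stayed within their intervals at pseudocounts of 0.5 and 3. The acute phase median was 2.56 with a filter of 1 read and 2.72 with 1 CPM in both libraries. DESeq2 was left out for want of replicates. Depth limits Il6, Il11 and Osm.

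No paired analysis was possible because ctrl and M2 are single libraries.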
